A study of Homo sapiens with 34 samples.

Results

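The second day of the standard definitive endoderm (DE) protocol was described by comparing DE(a)-DE(b) cells, collected at 48 h, with the DE(a) cells they came from, collected at 24 h. These are 4 of the 34 RNA sequencing libraries of the series, 2 a side, and they were chosen by their labels alone. The study differentiated ESI017 cells, an established line of human embryonic stem cells, through 4 primitive streak (PS) treatments on day 1 and 3 lineage media on day 2, with 2 biological replicates of each of 17 conditions. The libraries were made from poly(A)-selected RNA of wild-type cells. DE(a) cells received 100 ng/ml activin A and 2 µM CHIR, which activates Wnt signaling by inhibiting GSK3, for the first day. DE(b) cells then received 100 ng/ml activin A and 250 nM LDN, a BMP receptor inhibitor, without CHIR, for the second day. The comparison therefore changes time, CHIR and LDN together, and their parts cannot be told apart in it. Other DE(a) cells received PM medium (1 µM A8301, an activin receptor inhibitor, with 20 ng/ml bFGF and 250 nM LDN) or LM medium (1 µM A8301 with 30 ng/ml BMP4 and 4 µM IWP2, which blocks Wnt secretion), and both are set beside DE(b) at 48 h. The labels list no CHIR in PM medium, while a description of PM treatment in the study includes it, so whether these PM cells received CHIR is uncertain. Anterior primitive streak (APS) cells, made with 4 µM CHIR, 30 ng/ml activin and 20 ng/ml bFGF and then moved to the same DE(b) medium, give a second starting point. Undifferentiated control cells are labeled as mTeSR Plus control at 48 h, so they differ from the other groups in medium and are not a 0 h sample by their label.

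DE is the germ layer that gives rise to the lining of the gut and to the liver, pancreas, lung and thyroid. In the embryo its precursors pass through the primitive streak, where Wnt, BMP and Nodal signals induce T-box and homeobox transcription factors. High Nodal signaling, supplied in culture as activin, then favors endoderm, in which SOX17, FOXA and GATA factors switch on an endodermal program while streak genes are silenced.

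All values are from 1 cell line, and bulk RNA does not tell fewer expressing cells from less RNA per cell. The p-values rest on the spread between replicate libraries, estimated over all 17 conditions and not over these 4 libraries alone. Total estimated counts were 19288786 and 18634352 at 24 h and 20308179 and 17201623 at 48 h (replicate 1 and replicate 2), and pairs of values below follow that order. Levels are CPM, the count divided by this total and multiplied by 1000000, so they compare 1 gene between samples but not genes of different length, and 3 counts correspond to 0.148 to 0.174 CPM. Intervals on folds cover counting error only. Mitochondrial genes took 3.55% and 7.99% of counts at 24 h and 4.77% and 9.28% at 48 h, higher in replicate 2 of each group, and the part of this in any result was not tested. Differences were tested with the edgeR quasi-likelihood test over all genes, and a gene is said to rise or fall where its Benjamini-Hochberg adjusted p was under 0.05.

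The markers went with the labels. The 7 DE markers (SOX17, FOXA2, GATA6, GATA4, CXCR4, CER1 and HHEX) summed to 2124 and 1557 CPM at 24 h and to 5445 and 5340 CPM at 48 h, and 6 of the 7 rose. CER1, the marker not called, made up most of the sum on both days. It held 1796 and 1319.9 CPM at 24 h and 4296 and 3886 CPM at 48 h. The 7 markers summed to 2.84 and 4.04 CPM in undifferentiated control cells, to 289 and 267 CPM in DE(a)-PM and to 233 and 244 CPM in DE(a)-LM. In DE(a)-PM most of the sum was CXCR4, at 156 and 244 CPM. The 4 PS markers (TBXT, MIXL1, EOMES and GSC) went from 2375 and 2547 CPM to 1105 and 1139 CPM. The day 2 cells therefore still carried transcripts of this set beside endodermal ones. Most of the 48 h sum was MIXL1 and EOMES and little of it TBXT, and EOMES and GSC are shared with early endoderm.

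Of 17895 genes tested, 5011 were called, which is 28.0%. Of these, 2597 rose (14.5% of genes tested) and 2414 fell (13.5%). The median log2 fold change over all genes tested was 0. These shares are the background against which each gene group is read.

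**Figure D1:**
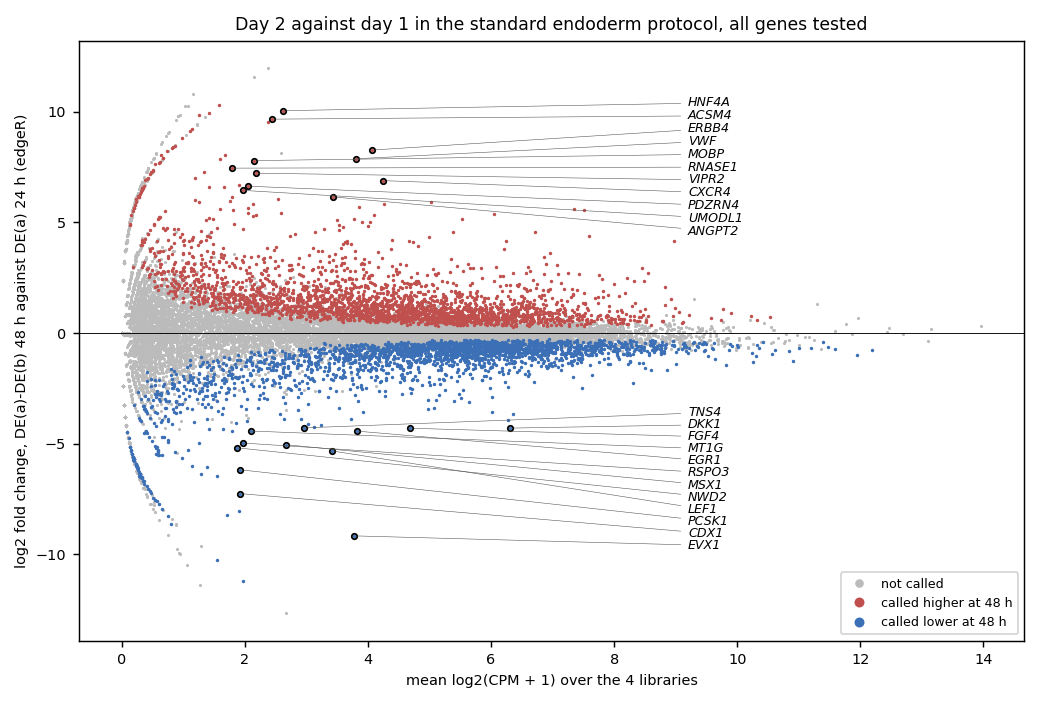
Log2 fold change of each tested gene from 24 h to 48 h (vertical axis) against its mean log2(CPM + 1) over the 4 libraries (horizontal axis), with called genes colored and 11 of the 12 largest rises and the 12 largest falls named. Called genes lie on both sides of 0, with 2597 higher and 2414 lower, and HNF4A and EVX1 mark the ends of the range of named genes.

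Most transcription factors of DE rose. Of 16 factors, 11 rose and 1 fell, with a median log2 fold change of 1.86. The largest rise was that of HNF4A, a nuclear receptor of liver and gut epithelium, at chr20:44355699-44432845 (GRCh38), which held 0.0518 and 0 CPM at 24 h and 39.4 and 33.0 CPM at 48 h. With 1 read in the 24 h libraries together, its ratio was 1383-fold (95% counting interval 248 to 54668), adjusted p = 1.21e-06. It was thus close to 0 in DE(a) cells and present in both DE(a)-DE(b) libraries.

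A window around an annotated HNF4A start is printed because this gene had the largest rise and because, of its windows in the table, this one holds a motif searched. It is from RefSeq (GRCh38.p14, plus strand, 250 bases before to 50 after the start). This window, chr20:44355449-44355748, holds the GATA motif AGATAA, in capitals, 26 bases before the start, and none of the other motifs searched.
HNF4A: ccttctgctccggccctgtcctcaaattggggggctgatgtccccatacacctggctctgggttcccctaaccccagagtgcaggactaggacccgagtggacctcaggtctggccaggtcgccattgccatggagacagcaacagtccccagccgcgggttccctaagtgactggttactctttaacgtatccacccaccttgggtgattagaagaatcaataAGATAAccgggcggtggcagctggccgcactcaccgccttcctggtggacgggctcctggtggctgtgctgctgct
The motifs searched on both strands were CTTTGAT for TCF/LEF, AGATAA for GATA factors, TGTTTAC for FOXA and ATTGTT for SOX. On either strand, AGATAA occurs in 10.3% of the 35116 promoter windows in the table. This is a match of letters and not shown to be bound, and the counts do not separate transcripts by their start.

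SOX17 and FOXA2, the usual markers of DE, both rose. SOX17 was at 91.8 and 24.3 CPM at 24 h and 330.4 and 439.6 CPM at 48 h (log2 fold change 2.66 ± 0.92 SE, adjusted p = 0.0365), so the ratio between the libraries of a day was larger at 24 h than at 48 h. FOXA2, a pioneer factor of endoderm, went from 6.22 and 5.31 to 86.0 and 125 CPM (log2 fold change 4.12 ± 0.92 SE, adjusted p = 0.00222). FOXA1, its paralog, went from 0.259 and 0.161 to 5.17 and 7.15 CPM (log2 fold change 4.76 ± 1.24 SE, adjusted p = 0.00619). FOXA factors were therefore low at the end of day 1 and higher in both libraries of day 2.

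HHEX, a homeobox factor of the anterior endoderm, rose from 2.90 and 2.04 to 62.5 and 84.1 CPM (log2 fold change 4.82 ± 0.48 SE, adjusted p = 8.4e-07). PRDM1, a transcriptional repressor of endoderm and germ cells, rose from 12.96 and 10.7 to 120.2 and 136 CPM (log2 fold change 3.36 ± 0.45 SE, adjusted p = 9.78e-06). For neither gene did the libraries of the 2 days overlap. The GATA factors were present in both 24 h libraries and rose further. GATA6 went from 207 and 189 to 465 and 604 CPM (log2 fold change 1.36 ± 0.30 SE, adjusted p = 0.0015), and GATA4, listed under 2 identifiers and therefore uncertain, from 18.6 and 15.7 to 37.1 and 47.4 CPM (log2 fold change 1.23 ± 0.42 SE, adjusted p = 0.0332). SOX18, a SOX factor of endothelium and the member that fell, went from 12.9 and 7.14 to 2.76 and 2.85 CPM (log2 fold change -1.90 ± 0.54 SE, adjusted p = 0.0113). FOXA3, SOX7, ZIC5 and KLF5 were not called. Calls that were lost on leaving out a library were SOX17 without 24 h replicate 2 or either 48 h library (adjusted p up to 0.236), FOXA1 without 24 h replicate 2 (adjusted p up to 0.0641), GATA4 without either 24 h library or 48 h replicate 2 (adjusted p up to 0.185) and SOX18 without 24 h replicate 1 or either 48 h library (adjusted p up to 0.135). The count of factors that rose was 7 without 24 h replicate 2.

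**Figure D2:**
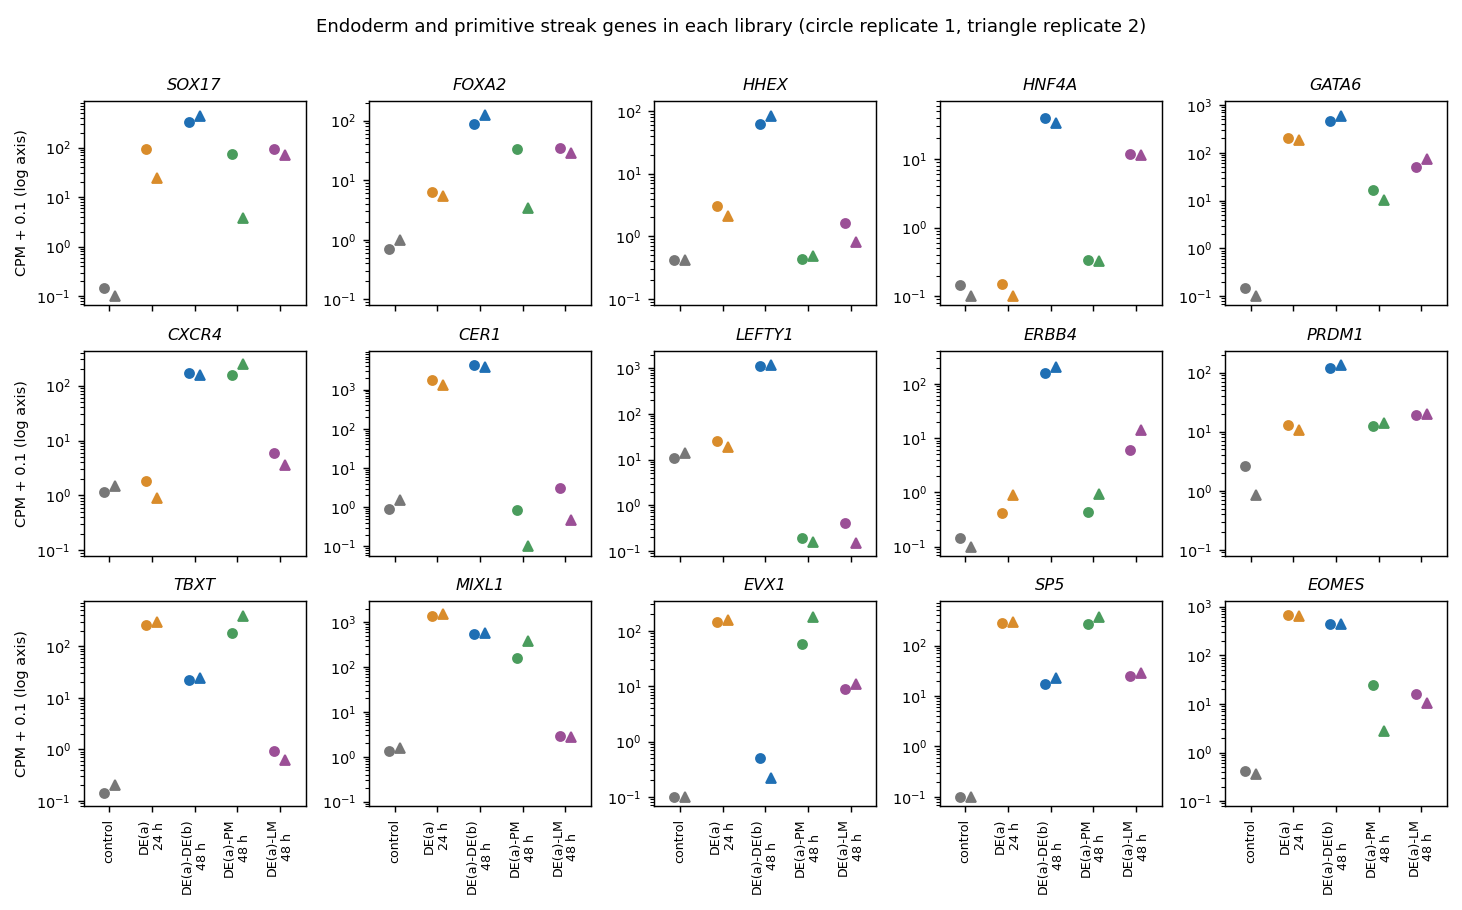
CPM + 0.1 on a log axis for 15 endoderm and streak genes in control, DE(a) 24 h, DE(a)-DE(b), DE(a)-PM and DE(a)-LM libraries, with a circle for replicate 1 and a triangle for replicate 2. HNF4A, HHEX, ERBB4 and LEFTY1 are higher in both DE(a)-DE(b) libraries than in both 24 h libraries, and TBXT, EVX1 and SP5 are lower.

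Most surface and secreted genes of DE rose. Of 21 genes, 19 were tested, of which 12 rose and 3 fell, with a median of 2.59. ERBB4, a neuregulin receptor, at chr2:211375717-212538841, went from 0.311 and 0.805 to 156 and 208 CPM (log2 fold change 8.27 ± 0.56 SE, adjusted p = 2.11e-09). CXCR4, the CXCL12 receptor by which DE is often sorted, at chr2:136114349-136119177, went from 1.76 and 0.805 to 168 and 154 CPM (log2 fold change 6.89 ± 0.71 SE, adjusted p = 4.27e-07). KIT, the stem cell factor receptor used beside CXCR4 in such sorts, went from 26.4 and 30.7 to 181 and 179 CPM (log2 fold change 2.59 ± 0.50 SE, adjusted p = 0.000555). The 2 sorting markers differed in start, KIT having been present in control cells at 35.5 and 37.3 CPM and CXCR4 at 1.04 and 1.38 CPM, and in both the libraries of the 2 days did not overlap.

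Among secreted products, STC1, a glycoprotein of calcium and phosphate balance, went from 11.8 and 7.51 to 397 and 444 CPM (log2 fold change 5.37 ± 0.53 SE, adjusted p = 2.46e-07). CST1, a cystatin protease inhibitor, went from 1.66 and 1.18 to 47.1 and 56.2 CPM (log2 fold change 5.11 ± 0.50 SE, adjusted p = 2.28e-07). FRZB, a secreted Wnt antagonist, went from 1.45 and 2.04 to 16.1 and 14.9 CPM (log2 fold change 3.08 ± 0.56 SE, adjusted p = 0.000298). All 3 were higher in both 48 h libraries. CER1, a secreted antagonist of Nodal, BMP and Wnt, was already at 1796 and 1319.9 CPM at 24 h and stood at 4296 and 3886 CPM at 48 h (log2 fold change 1.32 ± 0.55 SE, adjusted p = 0.0832). FGF17, a ligand of the streak and early endoderm, stood at 415 and 307 and then 1034 and 1189.6 CPM (log2 fold change 1.55 ± 0.62 SE, adjusted p = 0.0677). Neither of these abundant genes passed the test, although the libraries of the 2 days did not overlap for either. CER1 was called in fits with no filter on low counts, with a replicate term, or with only the 4 libraries compared. RSPO3, an R-spondin that strengthens Wnt signaling, fell from 8.50 and 12.7 to 0.197 and 0.523 CPM (log2 fold change -4.98 ± 0.67 SE, adjusted p = 1.39e-05). The other members that fell were TRH (log2 fold change -1.33 ± 0.49 SE, adjusted p = 0.0453) and VIL1 (log2 fold change -1.19 ± 0.42 SE, adjusted p = 0.0369). Both calls were lost on leaving out a library: TRH without 24 h replicate 1 or either 48 h library (adjusted p up to 0.566) and VIL1 without either 24 h library or 48 h replicate 2 (adjusted p up to 0.28). The count that fell was 1 without 24 h replicate 1 or 48 h replicate 2.

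Most transcription factors of the primitive streak fell. Of 15 factors, 9 fell and 1 rose, with a median of -1.50, and the count that rose was 0 in each of the 4 fits without 1 library. TBXT (brachyury), the T-box factor that marks streak and nascent mesoderm, fell from 259 and 298 to 22.2 and 23.8 CPM (log2 fold change -3.67 ± 0.44 SE, adjusted p = 2.46e-06). EVX1, a homeobox factor of the posterior streak, at chr7:27242700-27250493, fell from 144 and 154 to 0.394 and 0.116 CPM (log2 fold change -9.17 ± 0.94 SE, adjusted p = 5.48e-07), the largest fall among the genes named by size. MIXL1, a homeobox factor of mesendoderm, fell from 1368 and 1549 to 559 and 565 CPM (log2 fold change -1.45 ± 0.40 SE, adjusted p = 0.0101). EVX1 was thus left under 1 CPM in both libraries, and the fitted fall of MIXL1 was the smallest of the 3.

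MESP1, a factor of early cardiac mesoderm, held 11.2 and 7.73 CPM at 24 h and 0.0492 and 0 CPM at 48 h, where a single read was left, a ratio of 356-fold (95% counting interval 63.5 to 14103) lower with adjusted p = 4.17e-05. NKX1-2, a factor of the caudal epiblast, went from 57.2 and 73.4 to 11.3 and 18.1 CPM (log2 fold change -2.22 ± 0.57 SE, adjusted p = 0.00579), and SP8, a relative of SP5, from 33.3 and 36.1 to 9.996 and 16.1 CPM (log2 fold change -1.48 ± 0.43 SE, adjusted p = 0.0127). All 3 genes were lower in both 48 h libraries. EOMES and GSC, factors shared by the anterior streak and early endoderm, were not called: EOMES held 666 and 631 and then 439.8 and 443 CPM (log2 fold change -0.63 ± 0.56 SE, adjusted p = 0.437), and GSC held 82.5 and 68.7 and then 83.6 and 108 CPM (log2 fold change 0.27 ± 0.29 SE, adjusted p = 0.538). Lost on leaving out a library were the calls of MIXL1 without 24 h replicate 2 or either 48 h library (adjusted p up to 0.0611), NKX1-2 without 48 h replicate 1 (adjusted p up to 0.066) and SP8 without 24 h replicate 2 or 48 h replicate 1 (adjusted p up to 0.123).

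SP5, a zinc finger repressor induced by Wnt signaling, belongs to the streak and the Wnt lists and fell from 286 and 296 to 17.2 and 22.3 CPM (log2 fold change -3.95 ± 0.33 SE, adjusted p = 4.3e-08), while it was at 0 in both control libraries. Its promoter window is printed because SP5 is a usual readout of the pathway that CHIR activates. It lies at chr2:170715087-170715386 (RefSeq, GRCh38.p14, plus strand) and holds the TCF/LEF motif CTTTGAT, in capitals, 109 bases before the start, overlapping no other motif searched, with a GATA match, not in capitals, 227 bases before the start.
SP5: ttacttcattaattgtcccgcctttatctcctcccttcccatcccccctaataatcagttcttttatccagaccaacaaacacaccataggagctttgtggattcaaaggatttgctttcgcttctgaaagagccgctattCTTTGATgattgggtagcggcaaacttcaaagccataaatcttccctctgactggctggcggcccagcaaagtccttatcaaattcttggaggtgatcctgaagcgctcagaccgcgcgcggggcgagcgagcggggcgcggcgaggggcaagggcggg
On either strand, this motif occurs in 2.62% of all promoter windows in the table (919 of 35116). Of the 18 genes of the Wnt list, 10 have a window there and 1, SP5, holds it. The match does not show binding.

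Of 19 pluripotency genes, 8 fell and 0 rose, with a median of -0.76. ZFP42 (REX1), a marker of the pluripotent state, fell from 226 and 181 to 102 and 54.6 CPM (log2 fold change -1.45 ± 0.25 SE, adjusted p = 0.000163). FGF2, which human pluripotent cells make and need, fell from 108 and 134 to 44.6 and 40.8 CPM (log2 fold change -1.57 ± 0.28 SE, adjusted p = 0.000229). DPPA4, a chromatin factor, went from 404 and 465 to 296 and 238 CPM (log2 fold change -0.78 ± 0.20 SE, adjusted p = 0.00666), and ZSCAN10 from 149 and 131 to 71.9 and 102 CPM (log2 fold change -0.76 ± 0.26 SE, adjusted p = 0.0306). All 4 genes were lower in both 48 h libraries than in either 24 h library.

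NANOG, a core pluripotency factor, held 156 and 154 CPM at 24 h and 104 and 87.1 CPM at 48 h (log2 fold change -0.78 ± 0.45 SE, adjusted p = 0.215) and was not called. POU5F1 (OCT4), listed under 4 identifiers and therefore uncertain, went from 75.8 and 200.1 to 72.2 and 40.9 CPM (log2 fold change -1.36 ± 0.43 SE, adjusted p = 0.0209). SOX2, a core factor that also marks foregut, was at 331 and 278 CPM in control cells, 28.4 and 19.9 CPM at 24 h and 47.3 and 37.9 CPM at 48 h (log2 fold change 0.75 ± 0.63 SE, adjusted p = 0.412). PRDM14 held 19.3 and 15.9 and then 22.4 and 22.0 CPM (log2 fold change 0.27 ± 0.32 SE, adjusted p = 0.58). SOX2 and PRDM14 were thus far under their control level by 24 h and were not called between the days. The calls lost without a library were POU5F1 without 24 h replicate 2 or 48 h replicate 2 (adjusted p up to 0.497), DPPA4 without 24 h replicate 2 or 48 h replicate 2 (adjusted p up to 0.107) and ZSCAN10 without either 24 h library or 48 h replicate 1 (adjusted p up to 0.24). Members that fell numbered 5 without 48 h replicate 1, 3 without 48 h replicate 2 and 2 without 24 h replicate 2.

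Most genes of the Nodal and activin list were not called, in cells given the same dose of activin on both days. The large rises were those of LEFTY1 and LEFTY2. Of 17 genes, 3 rose and 1 fell, with a median of 0.17. LEFTY1, a feedback inhibitor of Nodal, at chr1:225886282-225911382, rose from 25.2 and 19.2 to 1137 and 1152 CPM (log2 fold change 5.62 ± 0.33 SE, adjusted p = 1.44e-09). LEFTY2, its neighbor and paralog, rose from 26.8 and 24.3 to 1134 and 1400.2 CPM (log2 fold change 5.56 ± 0.43 SE, adjusted p = 2.84e-08). As paralogs of close sequence the LEFTY genes may share reads, so the division between them is uncertain.

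NODAL itself, the ligand, held 356 and 288 CPM at 24 h and 229 and 182 CPM at 48 h (log2 fold change -0.72 ± 0.34 SE, adjusted p = 0.126), and its libraries did not overlap although it was not called. PMEPA1, a feedback gene of the pathway, held 122 and 116 and then 131 and 143 CPM (log2 fold change 0.13 ± 0.19 SE, adjusted p = 0.665), and SMAD7, an inhibitory SMAD, held 65.1 and 53.3 and then 55.2 and 78.2 CPM (log2 fold change 0.10 ± 0.19 SE, adjusted p = 0.751). The libraries of the days overlapped for SMAD7 and differed little for PMEPA1, unlike those of the LEFTY genes. ACVR2B, an activin receptor, rose from 108 and 135 to 191 and 192 CPM (log2 fold change 0.58 ± 0.14 SE, adjusted p = 0.00376). GDF3, a ligand of the Nodal branch, fell from 64.5 and 59.8 to 13.1 and 12.2 CPM (log2 fold change -2.37 ± 0.52 SE, adjusted p = 0.00169). The ACVR2B call was lost without a library: ACVR2B without 24 h replicate 1 (adjusted p up to 0.0802).

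Of 14 BMP target genes, 7 fell and 0 rose after the day with LDN, with a median of -2.04. The ID genes encode helix-loop-helix inhibitors that BMP induces directly, and all 4 fell. ID1 went from 121 and 62.5 to 17.7 and 10.1 CPM (log2 fold change -2.79 ± 0.50 SE, adjusted p = 0.000223), and ID2 from 52.2 and 56.0 to 14.5 and 11.7 CPM (log2 fold change -2.11 ± 0.27 SE, adjusted p = 6.29e-06). ID3 went from 156 and 90.7 to 22.7 and 11.4 CPM (log2 fold change -2.92 ± 0.42 SE, adjusted p = 2.43e-05), and ID4 from 23.6 and 16.3 to 1.77 and 2.79 CPM (log2 fold change -3.21 ± 0.48 SE, adjusted p = 3.47e-05). At 48 h, ID1 and ID3 were also lower than in control cells, which held 66.3 and 62.4 CPM of ID1 and 78.1 and 58.4 CPM of ID3, while ID2 overlapped its control level of 13.998 and 12.5 CPM. The homeobox genes MSX1 and MSX2 fell further, MSX1 from 19.1 and 26.6 to 0.739 and 0.698 CPM (log2 fold change -5.05 ± 0.52 SE, adjusted p = 3.87e-07) and MSX2 from 32.2 and 24.6 to 1.28 and 1.92 CPM (log2 fold change -4.23 ± 0.40 SE, adjusted p = 1.57e-07). Without 48 h replicate 1 there was 1 member that rose, where the full data had 0.

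Of 15 BMP ligands and modulators, 7 rose and 3 fell, with a median of 0.82. BMP4 rose from 4.56 and 4.29 to 16.9 and 13.3 CPM (log2 fold change 1.69 ± 0.39 SE, adjusted p = 0.00253) and BMP7 from 16.4 and 12.6 to 45.6 and 51.3 CPM (log2 fold change 1.67 ± 0.36 SE, adjusted p = 0.00131), both ligands of the pathway. BMP2, another ligand, held 256 and 241 and then 255 and 304 CPM (log2 fold change 0.10 ± 0.27 SE, adjusted p = 0.843). Of the extracellular antagonists, CHRD (chordin) rose from 0.881 and 0.322 to 3.55 and 8.43 CPM (log2 fold change 3.22 ± 0.49 SE, adjusted p = 3.8e-05). BMPER, a BMP-binding modulator, went from 0.881 and 0.483 to 4.23 and 7.50 CPM (log2 fold change 3.01 ± 0.70 SE, adjusted p = 0.00253), and BMPR2, a type II receptor, from 69.6 and 88.5 to 130.3 and 163 CPM (log2 fold change 0.82 ± 0.23 SE, adjusted p = 0.00889). The BMPR2 call was lost without a library: BMPR2 without 24 h replicate 1 or 48 h replicate 2 (adjusted p up to 0.11). The number of falls was 1 without either 24 h library or 48 h replicate 2.

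Of 18 Wnt feedback and target genes, 8 fell, 2 rose and 8 were not called after the day without CHIR, with a median of -1.63. LEF1, a transcription factor of the pathway and its target, at chr4:108047545-108168956, fell from 38.5 and 61.3 to 1.48 and 1.105 CPM (log2 fold change -5.33 ± 0.39 SE, adjusted p = 4.18e-09). DKK1, a secreted inhibitor, fell from 253 and 424 to 17.2 and 19.0 CPM (log2 fold change -4.30 ± 0.50 SE, adjusted p = 1.56e-06). TCF7, a second factor of the family, fell from 78.4 and 87.0 to 23.7 and 26.5 CPM (log2 fold change -1.79 ± 0.27 SE, adjusted p = 3.56e-05), and NKD1, a cytoplasmic feedback inhibitor, from 114 and 198 to 38.6 and 58.6 CPM (log2 fold change -1.75 ± 0.45 SE, adjusted p = 0.00575). LEF1 at 48 h was close to its control level of 0.948 and 1.12 CPM, while DKK1 stayed above its control level of 0.135 and 0.266 CPM.

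AXIN2, the most general Wnt target, held 135 and 179.9 and then 87.1 and 108 CPM (log2 fold change -0.76 ± 0.32 SE, adjusted p = 0.0782), which did not pass the test although the libraries did not overlap, and both days lay above the control at 45.7 and 39.2 CPM. SFRP1, a secreted Wnt antagonist, rose from 24.7 and 16.6 to 539 and 485 CPM (log2 fold change 4.56 ± 0.23 SE, adjusted p = 3.56e-11), back to the range of the control at 518 and 368 CPM. LGR5, an R-spondin receptor, rose from 5.55 and 10.1 to 43.8 and 69.8 CPM (log2 fold change 2.79 ± 0.41 SE, adjusted p = 3.2e-05). The 2 genes of the list that rose were thus SFRP1 and LGR5. The call of NKD1 was lost without a library: NKD1 without 24 h replicate 2 or 48 h replicate 1 (adjusted p up to 0.0795).

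Among WNT ligands, 14 of 19 genes were tested, 5 fell and 1 rose, with a median of -1.33. WNT5A and WNT5B, ligands of the noncanonical branch, fell from 22.6 and 31.2 to 7.14 and 4.24 CPM (log2 fold change -2.31 ± 0.30 SE, adjusted p = 6.07e-06) and from 11.3 and 14.01 to 1.67 and 1.92 CPM (log2 fold change -2.89 ± 0.50 SE, adjusted p = 0.000153). WNT4 was the ligand that rose, from 0.207 and 0.107 to 4.83 and 2.15 CPM (log2 fold change 4.34 ± 1.19 SE, adjusted p = 0.00897). WNT1 and WNT2 were at 0 in all 4 libraries. The call of WNT4 was lost without a library: WNT4 without either 24 h library (adjusted p up to 0.082).

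FGF and ERK feedback genes changed in both directions, with 5 rises and 3 falls among 18 genes and a median of 0.29. DUSP4, a phosphatase that acts on ERK, rose from 49.8 and 29.8 to 338 and 380.0 CPM (log2 fold change 3.10 ± 0.29 SE, adjusted p = 1.11e-07). SPRED1, an inhibitor of RAS signaling, rose from 59.5 and 62.5 to 124 and 116 CPM (log2 fold change 0.90 ± 0.18 SE, adjusted p = 0.000555), and ETV5, an ETS factor induced by FGF, from 19.7 and 14.2 to 53.1 and 43.4 CPM (log2 fold change 1.43 ± 0.39 SE, adjusted p = 0.00808). DUSP6, a second ERK phosphatase and the usual FGF readout, held 92.8 and 58.5 and then 42.6 and 37.7 CPM (log2 fold change -0.98 ± 0.39 SE, adjusted p = 0.0653) and was not called, although both 48 h libraries were the lower. DUSP4 and DUSP6 thus lay on opposite sides of 0, DUSP6 without a call.

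EGR1 and FOS, immediate early genes, fell, but their replicates stood far apart. EGR1 went from 14.5 and 139.6 to 1.58 and 6.05 CPM (log2 fold change -4.43 ± 1.39 SE, adjusted p = 0.0203), and FOS from 16.0 and 35.7 to 2.36 and 6.39 CPM (log2 fold change -2.64 ± 0.78 SE, adjusted p = 0.0147), with replicate 2 the higher on both days and for both genes. FGFR1, a receptor, rose from 203 and 199 to 299.9 and 366 CPM (log2 fold change 0.65 ± 0.20 SE, adjusted p = 0.0181). Several of these calls rested on single libraries: ETV5 without 24 h replicate 2 (adjusted p up to 0.0864), EGR1 without 24 h replicate 2 or either 48 h library (adjusted p up to 0.357), FOS without 24 h replicate 2 or 48 h replicate 1 (adjusted p up to 0.13) and FGFR1 without either 24 h library or 48 h replicate 2 (adjusted p up to 0.187). The count that rose was 3 without 48 h replicate 2 and 2 without 24 h replicate 2, and the count that fell was 1 without 24 h replicate 2 and 0 without 48 h replicate 1.

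Of 15 FGF ligands, 14 were tested, of which 5 fell, 1 rose and 8 were not called, with a median of -1.07. FGF4, a ligand of the streak and of pluripotent cells, fell from 89.9 and 116 to 6.35 and 4.59 CPM (log2 fold change -4.31 ± 0.37 SE, adjusted p = 4.8e-08). FGF19 fell from 34.9 and 37.8 to 4.38 and 4.59 CPM (log2 fold change -3.09 ± 0.57 SE, adjusted p = 0.000323), and FGF10 from 3.89 and 4.19 to 0.295 and 1.05 CPM (log2 fold change -2.69 ± 0.54 SE, adjusted p = 0.00068). All 3 ligands were lower in both 48 h libraries. FGF1 held 1.14 and 0.966 and then 0.148 and 0.523 CPM and was not called (adjusted p = 0.34). The ligand that rose was FGF9, whose call was not kept when 24 h replicate 1, 24 h replicate 2 or 48 h replicate 2 was left out, so that the count was then 0.

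**Figure D3:**
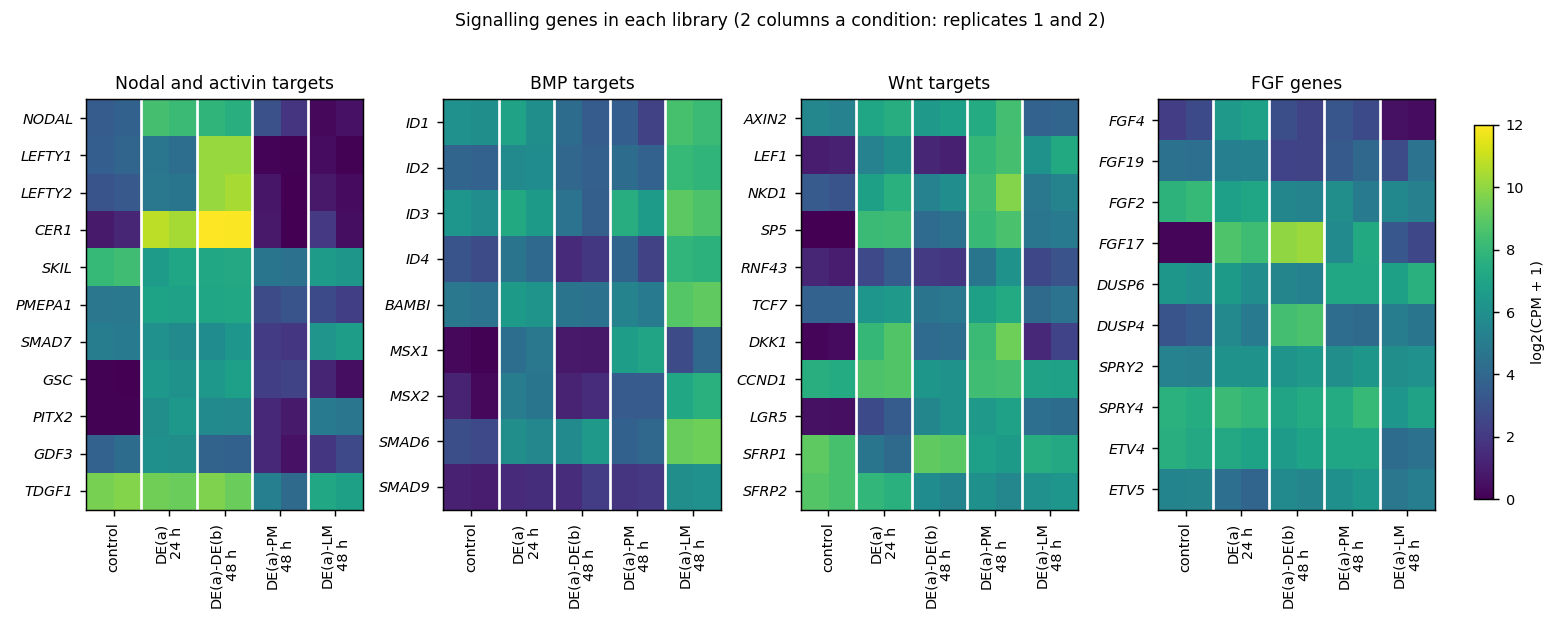
Levels as log2(CPM + 1) in shades, for genes of the Nodal and activin, BMP, Wnt and FGF pathways (4 panels), with 2 columns (replicate 1 and replicate 2) for each of control, DE(a) 24 h, DE(a)-DE(b), DE(a)-PM and DE(a)-LM. The LEFTY1 and LEFTY2 cells are far higher in DE(a)-DE(b) than in any other column, and ID1 is lower in DE(a)-DE(b) than in DE(a) 24 h or DE(a)-LM.

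Genes of the epithelial to mesenchymal transition (EMT) showed no common direction, with 3 rises and 4 falls among 15 and a median of -0.08. SNAI1, a repressor of E-cadherin, fell from 35.3 and 26.7 to 14.7 and 17.3 CPM (log2 fold change -1.03 ± 0.24 SE, adjusted p = 0.0029), SNAI2 from 2.90 and 3.33 to 0.985 and 0.116 CPM (log2 fold change -2.49 ± 0.71 SE, adjusted p = 0.0113) and ZEB2, another such repressor, from 8.19 and 9.28 to 1.23 and 1.395 CPM (log2 fold change -2.81 ± 0.49 SE, adjusted p = 0.000174). CDH2 (N-cadherin) rose from 425 and 455 to 816 and 802 CPM (log2 fold change 0.80 ± 0.15 SE, adjusted p = 0.000316), and FN1 (fibronectin) from 215 and 217 to 843 and 1067 CPM (log2 fold change 2.08 ± 0.29 SE, adjusted p = 1.59e-05). CDH11, a mesenchymal cadherin, fell from 49.8 and 62.4 to 23.8 and 21.5 CPM (log2 fold change -1.38 ± 0.38 SE, adjusted p = 0.00972). MMP14, a membrane protease, rose from 215 and 154 to 365 and 404 CPM (log2 fold change 0.99 ± 0.22 SE, adjusted p = 0.00203), and VIM (vimentin) held 515 and 303 and then 487 and 325 CPM (log2 fold change -0.08 ± 0.32 SE, adjusted p = 0.887). The repressors fell while N-cadherin and fibronectin rose. Calls lost without a library were those of SNAI1 without 24 h replicate 1 (adjusted p up to 0.0516), SNAI2 without 24 h replicate 2 or 48 h replicate 2 (adjusted p up to 0.142) and CDH11 without 24 h replicate 2 or 48 h replicate 2 (adjusted p up to 0.0749). The count of members that fell was 2 without 24 h replicate 2 or 48 h replicate 2.

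Epithelial genes were as mixed, with 4 rises and 5 falls among 20 and a median of 0.06. CDH1 (E-cadherin) fell from 169 and 172 to 116 and 83.4 CPM (log2 fold change -0.85 ± 0.26 SE, adjusted p = 0.0169), from a control level of 303 and 299 CPM. CDH3 (P-cadherin) went from 166 and 129 to 115 and 99.6 CPM (log2 fold change -0.53 ± 0.19 SE, adjusted p = 0.0428), CLDN7, a claudin, from 108 and 86.6 to 48.9 and 37.8 CPM (log2 fold change -1.24 ± 0.28 SE, adjusted p = 0.00215) and GRHL2, a factor that maintains epithelium, from 21.3 and 23.2 to 11.6 and 9.53 CPM (log2 fold change -1.15 ± 0.39 SE, adjusted p = 0.0321). KRT19, a keratin of simple epithelia, rose from 119 and 62.7 to 230.2 and 229.7 CPM (log2 fold change 1.27 ± 0.30 SE, adjusted p = 0.00299), and KRT8 from 762 and 433 to 1296 and 1335 CPM (log2 fold change 1.07 ± 0.30 SE, adjusted p = 0.0104). Within this list CDH1 and CDH3 therefore fell while KRT19 and KRT8 rose, and CDH2, given above, also rose. The calls did not hold for CDH1 without either 24 h library or 48 h replicate 2 (adjusted p up to 0.188), CDH3 without 24 h replicate 1 or either 48 h library (adjusted p up to 0.347), GRHL2 without either 24 h library or either 48 h library (adjusted p up to 0.185), KRT19 without 24 h replicate 2 (adjusted p up to 0.0742) and KRT8 without 24 h replicate 2 or 48 h replicate 2 (adjusted p up to 0.161). Members that rose numbered 1 without 24 h replicate 2 and the count that fell was 3 without 24 h replicate 2 or 48 h replicate 1 and 1 without 24 h replicate 1 or 48 h replicate 2.

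Of 20 basement membrane genes, 9 rose and 3 fell, with a median of 0.37. The collagen IV chains form the network of basement membranes. COL4A1 rose from 128 and 131 to 357 and 539.9 CPM (log2 fold change 1.73 ± 0.24 SE, adjusted p = 1.85e-05) and COL4A2 from 115 and 119 to 307 and 425 CPM (log2 fold change 1.58 ± 0.24 SE, adjusted p = 3.58e-05). COL4A5 rose from 37.3 and 53.3 to 141 and 248 CPM (log2 fold change 2.03 ± 0.32 SE, adjusted p = 5.7e-05) and COL4A6 from 16.0 and 24.9 to 107 and 223 CPM (log2 fold change 2.94 ± 0.35 SE, adjusted p = 2.45e-06). Each pair shares a promoter region in the genome, and both pairs rose. Laminin chains went both ways: LAMA1 rose from 90.4 and 109 to 196 and 239.5 CPM (log2 fold change 1.06 ± 0.20 SE, adjusted p = 0.000528) and LAMA3 fell from 5.44 and 5.26 to 0.64 and 0.407 CPM (log2 fold change -3.40 ± 0.62 SE, adjusted p = 0.000301). The number of rises was 5 without 24 h replicate 2 or 48 h replicate 2.

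Receptors of guidance and migration cues included several of the larger rises, with 7 rises and 6 falls among 19 genes and a median of 0.49. ACKR3, a scavenger receptor for CXCL12, rose from 6.22 and 4.56 to 99.9 and 103 CPM (log2 fold change 4.16 ± 0.43 SE, adjusted p = 3.86e-07), beside CXCR4 above, while CXCL12 itself fell from 20.9 and 22.5 to 14.4 and 8.26 CPM (log2 fold change -1.01 ± 0.27 SE, adjusted p = 0.00799). Both receptors of the chemokine rose and the chemokine transcript fell. PLXNA4 and PLXNA2, semaphorin receptors, rose from 2.33 and 1.99 to 76.6 and 109 CPM (log2 fold change 5.35 ± 0.54 SE, adjusted p = 3.42e-07) and from 155 and 133 to 713 and 1299 CPM (log2 fold change 2.73 ± 0.34 SE, adjusted p = 4.23e-06). S1PR3, a sphingosine 1-phosphate receptor, rose from 30.6 and 37.6 to 368 and 522 CPM (log2 fold change 3.63 ± 0.35 SE, adjusted p = 1.8e-07). APLNR, the apelin receptor of migrating mesendoderm, fell from 141 and 93.9 to 30.6 and 25.6 CPM (log2 fold change -2.13 ± 0.39 SE, adjusted p = 0.000274). The CXCL12 call was lost without a library: CXCL12 without 48 h replicate 2 (adjusted p up to 0.155). The count that fell was 3 without 24 h replicate 1 or either 48 h library.

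Genes of the anterior and posterior gut tube were counted apart. Of 12 anterior endoderm genes, 7 were tested, 3 rose and 2 fell, with a median of 0.75. Beside HHEX, OTX2, a homeobox factor of the anterior embryo, rose from 87.2 and 81.1 to 327 and 344 CPM (log2 fold change 1.92 ± 0.47 SE, adjusted p = 0.00419), and SHISA2, an antagonist of Wnt and FGF receptors, from 6.17 and 3.76 to 62.5 and 84.1 CPM (log2 fold change 3.81 ± 0.57 SE, adjusted p = 3.17e-05). The 2 members that fell were DKK1, given above, and ISL1, a factor of foregut and of cardiac mesoderm. Members that fell numbered 1 without either 24 h library or either 48 h library.

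Of 10 mid and hindgut genes, 4 fell and 0 rose: CDX1, CDX2, CDX4 and EVX1. The median log2 fold change was -3.98, or -2.83 with the genes that had no reads in 1 group set at the bound that a floor of 3 counts over the group gives. The CDX genes specify posterior identity. CDX1 held 10.2 and 14.9 CPM at 24 h and 0.148 and 0 CPM at 48 h, a ratio of 156-fold (95% counting interval 53.2 to 761) lower with adjusted p = 6.44e-08. CDX2 held 0.778 and 4.13 CPM at 24 h and no reads in either 48 h library, at least 30.3-fold lower with adjusted p = 0.000295, and CDX4 held 2.13 and 0.805 and then 0.0985 and 0 CPM, a ratio of 27.7-fold (95% counting interval 7.32 to 234) lower with adjusted p = 0.00188. All 3 CDX genes were thus at or under 0.148 CPM in the DE(a)-DE(b) cells. Of 39 HOX genes, 37 were tested, 3 fell and 0 rose, with a median of 0, most being at or near 0 on both days.

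Markers of other lineages were low at 48 h. The 4 paraxial mesoderm markers (TBX6, MSGN1, MEOX1 and TCF15) summed to 9.33 and 7.94 CPM at 24 h and to 3.40 and 3.43 CPM at 48 h, against 205 and 228 CPM in DE(a)-PM, with MSGN1 at 0 in both 48 h libraries. Of 13 paraxial genes tested, of 14, 2 fell and 0 rose, among them TBX6, a T-box factor, from 5.75 and 5.53 to 2.27 and 1.92 CPM (log2 fold change -1.50 ± 0.30 SE, adjusted p = 0.00062). The 4 lateral mesoderm markers (HAND1, FOXF1, ISL1 and TBX20) summed to 6.58 and 3.70 CPM and then to 4.38 and 5.29 CPM, against 465 and 952 CPM in DE(a)-LM. At 48 h the paraxial sum was thus far under that in DE(a)-PM, and the lateral sum far under that in DE(a)-LM.

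Of 14 lateral and cardiac genes, 6 fell and 1 rose, with a median of -2.99, or -1.57 with genes at 0 set at their bound. HAND1, the defining factor, held 1.87 and 0.644 CPM at 24 h and 0 and 0.0581 CPM at 48 h, a ratio of 47.5-fold (95% counting interval 8.12 to 1914) lower with adjusted p = 0.0156. KDR, a VEGF receptor of mesoderm, went from 200.0 and 291 to 107 and 106 CPM (log2 fold change -1.28 ± 0.44 SE, adjusted p = 0.0322). TBX20, a cardiac T-box factor and the member that rose, went from 0.311 and 0 to 3.84 and 4.59 CPM (log2 fold change 4.61 ± 0.82 SE, adjusted p = 0.000247). TBX20 therefore made up most of the 48 h sum of the 4 lateral markers. The calls of HAND1 and KDR were lost without a library: HAND1 without 24 h replicate 1 or either 48 h library (adjusted p up to 0.162) and KDR without 24 h replicate 2 or either 48 h library (adjusted p up to 0.201). The number of falls was 3 without 24 h replicate 1 and 2 without either 48 h library.

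The 4 amnion markers (GATA3, TFAP2A, VTCN1 and GABRP) summed to 7.15 and 6.82 CPM and then to 3.74 and 3.43 CPM, with VTCN1 at 0 at 48 h, and 6 of 10 amnion genes fell with 0 rising (median -2.38, or -2.29 with genes at 0 at their bound). IGFBP3, an IGF-binding protein, fell from 18.8 and 10.1 to 1.38 and 2.03 CPM (log2 fold change -3.16 ± 0.40 SE, adjusted p = 5.65e-06). The count that fell was 3 without either 24 h library and 2 without 48 h replicate 1. The 4 visceral endoderm markers (AFP, TTR, APOA1 and HNF4A) summed to 0.104 and 0 CPM and then to 39.9 and 33.5 CPM, nearly all of it HNF4A, with TTR at 0 in both 48 h libraries. Of 12 genes of visceral and extraembryonic endoderm, 9 were tested, 3 rose and 0 fell, with a median of 2.18. Beside HNF4A, CUBN (cubilin), an endocytic receptor, rose from 0.311 and 0.0537 to 2.07 and 2.62 CPM (log2 fold change 3.56 ± 0.58 SE, adjusted p = 8.67e-05). The secreted products of visceral endoderm, AFP and TTR, were therefore near or at 0.

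The primordial germ cell markers (NANOS3, TFAP2C, SOX15 and DND1) summed to 8.19 and 6.33 CPM and then to 19.4 and 17.4 CPM, mostly from TFAP2C, an AP-2 factor, which rose from 4.56 and 2.84 to 17.1 and 13.02 CPM (log2 fold change 1.95 ± 0.32 SE, adjusted p = 8.69e-05). Of 10 germ cell genes, 8 were tested, 2 rose (TFAP2C and PRDM1) and 0 fell, with a median of -0.47, and NANOS3, the defining gene, was at 0 in both 48 h libraries. Blood and endothelial markers (TAL1, CDH5, PECAM1 and GATA1) summed to 0.0518 and 0.107 CPM and then to 1.67 and 0.698 CPM, and 1 of 8 genes tested rose and 1 fell (median -0.15). The neural markers PAX6, SOX1 and ZIC1 summed to under 0.5 CPM in each of the 4 libraries. Of 7 neural genes tested, TUBB3, a neuronal tubulin also found in other cells, rose (log2 fold change 0.71 ± 0.22 SE, adjusted p = 0.0204) and NES (nestin) fell (log2 fold change -0.54 ± 0.13 SE, adjusted p = 0.00395), and the median was -0.54. Both calls were lost without a library: TUBB3 without 24 h replicate 2 or either 48 h library (adjusted p up to 0.322) and NES without 24 h replicate 1 (adjusted p up to 0.111).

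**Figure D4:**
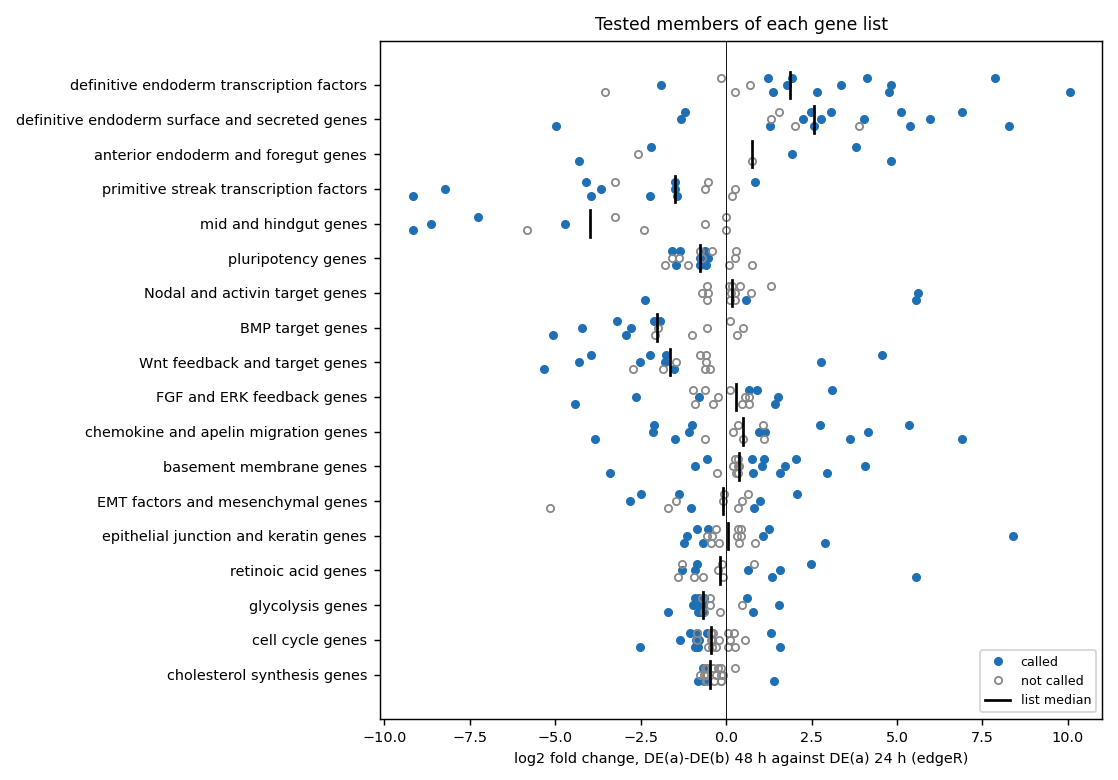
Log2 fold change from 24 h to 48 h of each tested member of 18 gene lists, one list to a line, with filled points for called genes, open points for the others and a bar at the median of the list. The DE lists have medians of 1.86 and 2.59, the streak, Wnt and BMP target lists medians of -1.50, -1.63 and -2.04, and most other lists lie around 0.

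Of 20 genes of glycolysis, 11 fell and 3 rose, with a median of -0.67. SLC2A1, a glucose transporter, fell from 299 and 198 to 90.5 and 71.3 CPM (log2 fold change -1.69 ± 0.32 SE, adjusted p = 0.00041), and HK1, which phosphorylates glucose, from 294 and 236 to 149.8 and 134 CPM (log2 fold change -0.97 ± 0.14 SE, adjusted p = 3.14e-05). LDHA, which makes lactate, went from 867 and 739.5 to 567 and 325 CPM (log2 fold change -0.92 ± 0.30 SE, adjusted p = 0.0261), and GAPDH, often a reference gene, from 4022 and 3068 to 2830.0 and 1929 CPM (log2 fold change -0.65 ± 0.19 SE, adjusted p = 0.0128). For GAPDH the libraries of the days did not overlap, but the 2 libraries of either day differed by more than the gap between the days. SLC2A3, a second glucose transporter, held 3382 and 3185 and then 2155 and 2087 CPM (log2 fold change -0.70 ± 0.27 SE, adjusted p = 0.0577). The members that rose were SLC16A3, a lactate exporter, from 5.91 and 3.81 to 14.03 and 15.6 CPM (log2 fold change 1.54 ± 0.30 SE, adjusted p = 0.000653), PFKL (log2 fold change 0.80 ± 0.20 SE, adjusted p = 0.00553) and PFKM (log2 fold change 0.60 ± 0.13 SE, adjusted p = 0.00104), both phosphofructokinase subunits. The third subunit, PFKP, fell (log2 fold change -0.81 ± 0.22 SE, adjusted p = 0.00889). Leaving out a library ended the calls of LDHA without either 24 h library or 48 h replicate 2 (adjusted p up to 0.309), GAPDH without 24 h replicate 1 or 48 h replicate 2 (adjusted p up to 0.233), PFKL without 24 h replicate 2 or 48 h replicate 2 (adjusted p up to 0.0851) and PFKP without 24 h replicate 1 or 48 h replicate 1 (adjusted p up to 0.189). Members that fell numbered 6 without 24 h replicate 1 and 5 without 48 h replicate 2.

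Cholesterol synthesis genes had few calls, with 3 of 22 falling, 1 rising and a median of -0.46. SC5D, a sterol desaturase, fell from 141 and 155 to 93.7 and 99.4 CPM (log2 fold change -0.69 ± 0.19 SE, adjusted p = 0.0106). TM7SF2, a sterol reductase, was the member that rose (log2 fold change 1.42 ± 0.45 SE, adjusted p = 0.0215). With a replicate term 8 members fell, with no filter 10 and with DESeq2 5, and the count that fell was 1 without 24 h replicate 1 or 48 h replicate 2. The named calls were lost without a library: SC5D without 24 h replicate 2 or 48 h replicate 1 (adjusted p up to 0.0732) and TM7SF2 without 24 h replicate 2 or 48 h replicate 2 (adjusted p up to 0.2).

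Of 28 cell cycle genes, 10 fell and 2 rose, with a median of -0.44, and 9 of the 10 belong to DNA replication or the G1 phase. CCND1 (cyclin D1), a Wnt target and driver of G1, fell from 399 and 427 to 81.6 and 71.3 CPM (log2 fold change -2.51 ± 0.18 SE, adjusted p = 2.61e-09), and CCND2 from 188 and 168 to 76.9 and 69.5 CPM (log2 fold change -1.36 ± 0.24 SE, adjusted p = 0.000244). MCM2, MCM3 and MCM4, subunits of the replicative helicase, fell: MCM2 from 245 and 196 to 114 and 110.0 CPM (log2 fold change -1.04 ± 0.18 SE, adjusted p = 0.000168), MCM3 from 403 and 381 to 251 and 201 CPM (log2 fold change -0.87 ± 0.13 SE, adjusted p = 2.78e-05) and MCM4 from 457 and 464 to 295 and 232 CPM (log2 fold change -0.88 ± 0.12 SE, adjusted p = 1.69e-05). CDKN1B (p27), an inhibitor of G1 kinases, rose from 19.0 and 15.9 to 56.4 and 53.5 CPM (log2 fold change 1.58 ± 0.17 SE, adjusted p = 7.28e-07), and CDKN1C (p57), listed under 2 identifiers and uncertain, from 7.47 and 4.45 to 15.3 and 15.8 CPM (log2 fold change 1.31 ± 0.41 SE, adjusted p = 0.0216). The called G1 cyclins and the called inhibitors thus moved in opposite directions. None of the mitotic genes tested besides AURKB was called in the fit to all libraries. The number of members that fell shifted with the library left out, most without 48 h replicate 1, where it was higher. The CDKN1C call was lost without a library: CDKN1C without 24 h replicate 2 or either 48 h library (adjusted p up to 0.19). The count that rose was 1 without either 48 h library.

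Retinoic acid genes had 5 rises and 3 falls among 16 and a median of -0.17. CYP26A1, which degrades retinoic acid, rose from 168 and 82.4 to 774 and 710.2 CPM (log2 fold change 2.49 ± 0.53 SE, adjusted p = 0.00132). RARB, a receptor and target, rose from 0 and 0.376 to 10.8 and 8.31 CPM (log2 fold change 5.56 ± 0.86 SE, adjusted p = 4.83e-05), and ALDH1A3, which makes retinoic acid, from 13.5 and 9.45 to 31.7 and 39.6 CPM (log2 fold change 1.57 ± 0.51 SE, adjusted p = 0.0258). CRABP2, a carrier of retinoic acid in the cell, fell from 108 and 80.1 to 68.6 and 40.4 CPM (log2 fold change -0.86 ± 0.26 SE, adjusted p = 0.0155). Enzymes of synthesis and breakdown both rose while this carrier fell. Calls lost without a library were those of ALDH1A3 without either 24 h library or 48 h replicate 2 (adjusted p up to 0.168) and CRABP2 without 24 h replicate 1 or 48 h replicate 2 (adjusted p up to 0.25). Members that rose numbered 3 without either 24 h library and 2 without 48 h replicate 2, and the count that fell was 5 without 24 h replicate 2.

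Genes linked to DNA methylation and demethylation, not all of them enzymes, had 5 falls and 1 rise among 11 and a median of -0.10. DNMT1, the maintenance methyltransferase, fell from 344 and 342 to 206 and 217 CPM (log2 fold change -0.77 ± 0.16 SE, adjusted p = 0.000886), and DNMT3B, a de novo enzyme of pluripotent cells, from 852 and 821 to 636 and 593 CPM (log2 fold change -0.52 ± 0.17 SE, adjusted p = 0.0271), far under its control level of 2931 and 2632 CPM on both days. GADD45B, a stress gene linked to demethylation, fell from 66.1 and 47.7 to 10.1 and 10.99 CPM (log2 fold change -2.50 ± 0.30 SE, adjusted p = 2.68e-06). TET2, which oxidizes methylcytosine, rose from 7.57 and 10.2 to 15.4 and 22.4 CPM (log2 fold change 1.02 ± 0.25 SE, adjusted p = 0.00414). The calls did not hold for DNMT3B without either 24 h library or either 48 h library (adjusted p up to 0.149) and TET2 without 24 h replicate 1 or 48 h replicate 2 (adjusted p up to 0.0986). The number of falls was 3 without 24 h replicate 1 and 2 without 24 h replicate 2 or either 48 h library.

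Notch genes had 2 rises and 3 falls among 14 of 16 tested and a median of -0.03. NOTCH1 fell from 209 and 185 to 104 and 144 CPM (log2 fold change -0.74 ± 0.22 SE, adjusted p = 0.0168) and NOTCH3 rose from 121 and 109 to 240.1 and 357 CPM (log2 fold change 1.31 ± 0.29 SE, adjusted p = 0.00184), so that 2 receptors of the pathway went opposite ways. HES1, its best known target, fell from 42.4 and 43.7 to 7.88 and 7.03 CPM (log2 fold change -2.60 ± 0.57 SE, adjusted p = 0.0016). Leaving out a library ended the calls of NOTCH1 without 24 h replicate 1 or 48 h replicate 1 (adjusted p up to 0.17) and NOTCH3 without 48 h replicate 2 (adjusted p up to 0.0505). The number of rises was 1 without 24 h replicate 2 and 0 without 48 h replicate 2. Genes of p53 and stress had 2 rises and 1 fall among 18 of 19 tested and a median of 0.20. CDKN1A (p21), the main p53 target, held 22.4 and 10.2 and then 19.8 and 15.5 CPM (log2 fold change 0.04 ± 0.34 SE, adjusted p = 0.958), and its libraries overlapped. HSPA5 (BiP), a chaperone of the endoplasmic reticulum, went from 1119 and 938 to 1694 and 1523 CPM (log2 fold change 0.57 ± 0.18 SE, adjusted p = 0.0199), and BBC3 (PUMA), a proapoptotic gene, from 11.1 and 4.88 to 20.0 and 23.1 CPM (log2 fold change 1.36 ± 0.31 SE, adjusted p = 0.00226). The gene that fell was FAS, a death receptor (log2 fold change -1.38 ± 0.46 SE, adjusted p = 0.0274). Calls lost without a library were those of HSPA5 without 24 h replicate 2 or either 48 h library (adjusted p up to 0.163), BBC3 without 24 h replicate 2 (adjusted p up to 0.0591) and FAS without either 24 h library or 48 h replicate 2 (adjusted p up to 0.318). The count that rose was 4 without 24 h replicate 1, 1 without either 48 h library and 0 without 24 h replicate 2.

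Several of the 12 largest rises lie outside these lists. ACSM4, an acyl-CoA synthetase, held 0.0518 and 0 CPM at 24 h, a single read, and 28.4 and 27.1 CPM at 48 h, a ratio of 1054-fold (95% counting interval 189 to 41689.7) with adjusted p = 0.000108. VWF (von Willebrand factor), a clotting protein of endothelium, rose from 0.778 and 0.268 to 101 and 161 CPM (log2 fold change 7.88 ± 0.82 SE, adjusted p = 4.68e-07), and ANGPT2, a ligand of the endothelial TIE2 receptor, from 1.09 and 0.59 to 69.8 and 57.0 CPM (log2 fold change 6.15 ± 0.91 SE, adjusted p = 3.21e-05). The 4 blood and endothelial markers summed to 0.0518 and 0.107 CPM at 24 h and to 1.67 and 0.698 CPM at 48 h, where CDH5 and PECAM1 were detected and TAL1 and GATA1 were at 0 in both libraries, and the part of such cells in these rises was not tested. RNASE1, a secreted ribonuclease, held 0 and 0.107 and then 14.8 and 6.98 CPM, a ratio of 212-fold (95% counting interval 58.4 to 1759) with adjusted p = 2.01e-06, and MOBP, a myelin gene, held 0.0518 and 0.107 and then 9.45 and 30.2 CPM, a ratio of 239.9-fold (95% counting interval 81.8 to 1166) with adjusted p = 0.000337. The 48 h libraries differed most for MOBP. VIPR2, a receptor of the peptide VIP, rose from 0.104 and 0.107 to 20.0 and 15.1 CPM (log2 fold change 7.23 ± 0.87 SE, adjusted p = 6.11e-06). PDZRN4 rose from 0.207 and 0.0537 to 12.6 and 16.2 CPM (log2 fold change 6.64 ± 0.91 SE, adjusted p = 1.99e-05), and UMODL1 from 0.207 and 0.0537 to 10.8 and 14.4 CPM (log2 fold change 6.45 ± 0.84 SE, adjusted p = 7.19e-05). HNF4A, ERBB4 and CXCR4 were also among the 12.

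Among the 12 largest falls were also PCSK1, a prohormone convertase, from 10.01 and 12.99 to 0.148 and 0.174 CPM (log2 fold change -6.18 ± 0.67 SE, adjusted p = 6.95e-07), and NWD2, from 6.64 and 13.7 to 0.443 and 0.116 CPM (log2 fold change -5.19 ± 0.88 SE, adjusted p = 0.000136). MT1G, a metallothionein whose close paralogs could share its reads, fell from 8.87 and 13.2 to 0.542 and 0.523 CPM (log2 fold change -4.43 ± 0.57 SE, adjusted p = 6.59e-06). TNS4, a tensin of focal adhesions, fell from 22.2 and 28.2 to 1.03 and 1.69 CPM (log2 fold change -4.29 ± 0.54 SE, adjusted p = 5.84e-06). The other 8 of the 12, which were EVX1, CDX1, LEF1, MSX1, RSPO3, EGR1, FGF4 and DKK1, all belong to the streak, Wnt, BMP, FGF, hindgut or DE lists above.

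Comparison with the other media on the same DE(a) cells at the same 48 h holds time and day 1 constant. These contrasts share the DE(a)-DE(b) libraries with the one above. Against DE(a)-PM, 3675 genes were called (20.5%), 1898 higher (10.6%) and 1777 lower (9.93%) in DE(a)-DE(b). Against DE(a)-LM, 2783 were called (15.6%), 1369 higher (7.65%) and 1414 lower (7.90%). Of the 16 DE factors, 13 were higher than in DE(a)-PM and 6 higher than in DE(a)-LM, with 0 lower in either. Of the 17 Nodal and activin targets, 13 were higher and 1 lower than in DE(a)-PM, and 11 higher and 2 lower than in DE(a)-LM, both of which contain the activin receptor inhibitor.

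NODAL held 6.96 and 2.58 CPM in DE(a)-PM and 0.191 and 0.525 CPM in DE(a)-LM, where DE(a)-DE(b) held 229 and 182 CPM (adjusted p = 4.1e-09 and 2.02e-10). PMEPA1 held 6.02 and 7.74 CPM in DE(a)-PM and 5.48 and 3.72 CPM in DE(a)-LM against 131 and 143 CPM (adjusted p = 1.21e-11 and 9.16e-12). NODAL and PMEPA1, which were not called from day 1 to day 2, were thus called against both media without activin. CER1 showed the same, at 0.752 and 0 CPM in DE(a)-PM (log2 fold change 13.34 ± 0.97 SE, adjusted p = 7.44e-09) and 2.93 and 0.382 CPM in DE(a)-LM (log2 fold change 11.42 ± 0.88 SE, adjusted p = 2.05e-08), and so did EOMES, at 24.3 and 2.64 CPM and 15.7 and 10.41 CPM (adjusted p = 6.22e-06 and 7.48e-06). LEFTY1 was nearly absent from both media, at 0.094 and 0.0561 CPM in DE(a)-PM, a ratio of 14906-fold (95% counting interval 5100.4 to 72285), and at 0.318 and 0.0477 CPM in DE(a)-LM (log2 fold change 12.75 ± 0.50 SE, adjusted p = 4.16e-12). LEFTY2 was also among the 4 genes highest over DE(a)-LM, at 0.764 and 0.286 CPM there (log2 fold change 11.35 ± 0.59 SE, adjusted p = 1.56e-10).

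Endodermal factors were compared between the media. SOX17 held 72.7 and 3.76 CPM in DE(a)-PM, 2 libraries far apart, and 94.8 and 69.7 CPM in DE(a)-LM, against 330.4 and 439.6 CPM in DE(a)-DE(b) (log2 fold change 3.39 ± 0.95 SE, adjusted p = 0.0144 and log2 fold change 2.28 ± 0.90 SE, adjusted p = 0.103). FOXA2 likewise held 33.0 and 3.37 CPM in DE(a)-PM and 34.6 and 28.8 CPM in DE(a)-LM against 86.0 and 125 CPM (log2 fold change 2.59 ± 0.85 SE, adjusted p = 0.0356 and log2 fold change 1.79 ± 0.82 SE, adjusted p = 0.17). In PM medium, both factors were higher in replicate 1 than in replicate 2. HHEX was low in both, at 0.329 and 0.393 CPM in DE(a)-PM and 1.53 and 0.716 CPM in DE(a)-LM (log2 fold change 7.70 ± 0.58 SE, adjusted p = 1.34e-08 and log2 fold change 6.11 ± 0.53 SE, adjusted p = 9.33e-08). CXCR4 held 156 and 244 CPM in DE(a)-PM, a level that overlapped that of DE(a)-DE(b) (log2 fold change -0.26 ± 0.51 SE, adjusted p = 0.793), and 5.79 and 3.53 CPM in DE(a)-LM (log2 fold change 5.18 ± 0.63 SE, adjusted p = 3e-06). HNF4A held 0.235 and 0.224 CPM in DE(a)-PM (log2 fold change 7.31 ± 0.85 SE, adjusted p = 2.34e-06) and 11.9 and 11.4 CPM in DE(a)-LM (log2 fold change 1.69 ± 0.61 SE, adjusted p = 0.0679). HNF4A and SOX17 were not called between DE(b) and LM media, although their libraries did not overlap, and HHEX was called.

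Targets of signaling pathways were also set beside those in the other media. Of 14 BMP targets, 11 were lower and 0 higher than in DE(a)-LM, which contains BMP4, and 7 were lower and 3 higher than in DE(a)-PM, which contains the same BMP inhibitor. ID1 held 363 and 285 CPM in DE(a)-LM (log2 fold change -4.48 ± 0.53 SE, adjusted p = 1.99e-06) and 10.9 and 4.10 CPM in DE(a)-PM (log2 fold change 0.94 ± 0.50 SE, adjusted p = 0.212), against 17.7 and 10.1 CPM in DE(a)-DE(b). Of 18 Wnt targets, 10 were lower and 1 higher than in DE(a)-PM, where the presence of CHIR is uncertain, and 6 higher and 4 lower than in DE(a)-LM, which contains the blocker of Wnt secretion. AXIN2 held 165 and 345 CPM in DE(a)-PM (log2 fold change -1.34 ± 0.32 SE, adjusted p = 0.004) and 12.6 and 14.3 CPM in DE(a)-LM (log2 fold change 2.91 ± 0.35 SE, adjusted p = 2.23e-06). AXIN2 in DE(a)-DE(b) cells, at 87.1 and 108 CPM, thus lay between its levels in the other media. Of 15 EMT genes, 9 were lower and 1 higher than in DE(a)-PM, and 6 lower and 1 higher than in DE(a)-LM. SNAI1 held 59.0 and 75.6 CPM in DE(a)-PM (log2 fold change -2.02 ± 0.25 SE, adjusted p = 2.22e-06) and 16.1 and 21.6 CPM in DE(a)-LM (log2 fold change -0.19 ± 0.24 SE, adjusted p = 0.689).

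The genes lowest in DE(a)-DE(b) against DE(a)-PM included CDX2 and MSGN1. CDX2 held 175 and 206 CPM in DE(a)-PM and had no reads in DE(a)-DE(b), at least 2360.2-fold lower (adjusted p = 1.11e-09). MSGN1, a factor of presomitic mesoderm, held 50.5 and 57.3 CPM and was at least 670.2-fold lower (adjusted p = 1.32e-10). Also among the 4 lowest was ZNF831, a zinc finger gene (20.8 and 64.6 CPM in DE(a)-PM, at least 509-fold lower, adjusted p = 0.000106). Of 39 HOX genes, 20 were lower than in DE(a)-PM and 11 lower than in DE(a)-LM, and 0 were higher. On the high side, beside LEFTY1 and CER1, ACSM4 had no reads in DE(a)-PM and was at least 362-fold higher in DE(a)-DE(b) (adjusted p = 7.53e-05), and CD300E, a receptor of myeloid cells, was at least 311-fold higher (adjusted p = 5.37e-06).

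Against DE(a)-LM, the 4 lowest genes were HAND1, TBX2, FOXF1 and RGS13. HAND1 held 388 and 818 CPM in DE(a)-LM, a ratio of 23778-fold (95% counting interval 4267 to 939220.0) (adjusted p = 1.52e-09). TBX2, a cardiac T-box factor, held 49.6 and 65.7 CPM there and was at least 735-fold lower in DE(a)-DE(b) (adjusted p = 3.8e-08), and FOXF1, of splanchnic mesoderm, held 20.6 and 40.4 CPM and was at least 399-fold lower (adjusted p = 1.66e-05). RGS13, a regulator of G protein signaling, held 28.1 and 67.8 CPM and was at least 635-fold lower (adjusted p = 4.24e-05). These 4 genes were at or near 0 in both DE(a)-DE(b) libraries. On the high side, beside LEFTY1, CER1 and LEFTY2, DKK4, a secreted Wnt inhibitor, had no reads in DE(a)-LM and held 107 and 54.0 CPM in DE(a)-DE(b), at least 1009-fold higher (adjusted p = 0.0207).

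APS cells in the same DE(b) medium asked whether day 2 changed differently from another day 1 state. The change from 24 h to 48 h after DE(a) differed from that after APS for 10 of 17895 genes, which is 0.0559%, by the edgeR interaction term. Of these, 9 are given here. LGR5 rose after DE(a), as above, but held 108 and 126 CPM in APS cells at 24 h and 25.6 and 31.4 CPM after DE(b) medium (difference of log2 changes 4.87 ± 0.57 SE, adjusted p = 0.000425). TBX3, a T-box factor, held 11.4 and 9.93 and then 9.80 and 14.5 CPM after DE(a), and 62.2 and 66.0 and then 7.61 and 10.7 CPM after APS (2.97 ± 0.37 SE, adjusted p = 0.000525). In both genes the ratio between the treatments was larger at 24 h than at 48 h.

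CACNA2D1, a calcium channel subunit, held 33.0 and 42.2 and then 35.7 and 40.5 CPM after DE(a) and 73.5 and 76.5 and then 25.1 and 22.8 CPM after APS (1.64 ± 0.24 SE, adjusted p = 0.00562). RASGRP3, a RAS exchange factor, went from 2.75 and 3.06 to 0.246 and 0.523 CPM and from 35.8 and 33.8 to 0.331 and 0.0493 CPM (4.56 ± 0.85 SE, adjusted p = 0.0477). SAMD4A, an RNA-binding repressor, went from 70.9 and 71.2 to 14.2 and 15.5 CPM and from 101 and 153 to 6.62 and 6.22 CPM (2.02 ± 0.31 SE, adjusted p = 0.0073). The last 2 genes were lower at 48 h after either day 1 treatment, by more after APS.

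RUBCNL, a gene of autophagosome maturation, differed by 1.69 ± 0.32 SE (adjusted p = 0.0477). GADD45G, a growth arrest gene, differed by 2.40 ± 0.42 SE (adjusted p = 0.0311) and ARHGAP24, a RAC inhibitor, by 2.21 ± 0.38 SE (adjusted p = 0.0297). SFRP1 was the exception in sign, with a larger change after APS, from 9.03 and 7.37 to 605 and 579 CPM (-1.57 ± 0.29 SE, adjusted p = 0.0477). Key DE genes had no called difference: SOX17 (-3.76 ± 1.30 SE, adjusted p = 0.537), HHEX (-1.13 ± 0.63 SE, adjusted p = 0.76) and CXCR4 (1.30 ± 0.90 SE, adjusted p = 0.802). With standard errors of this size, differences of moderate size were not detectable, and for SOX17 even a large estimate was not called. A like change after both starts is thus not shown for these genes.

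**Figure D5:**
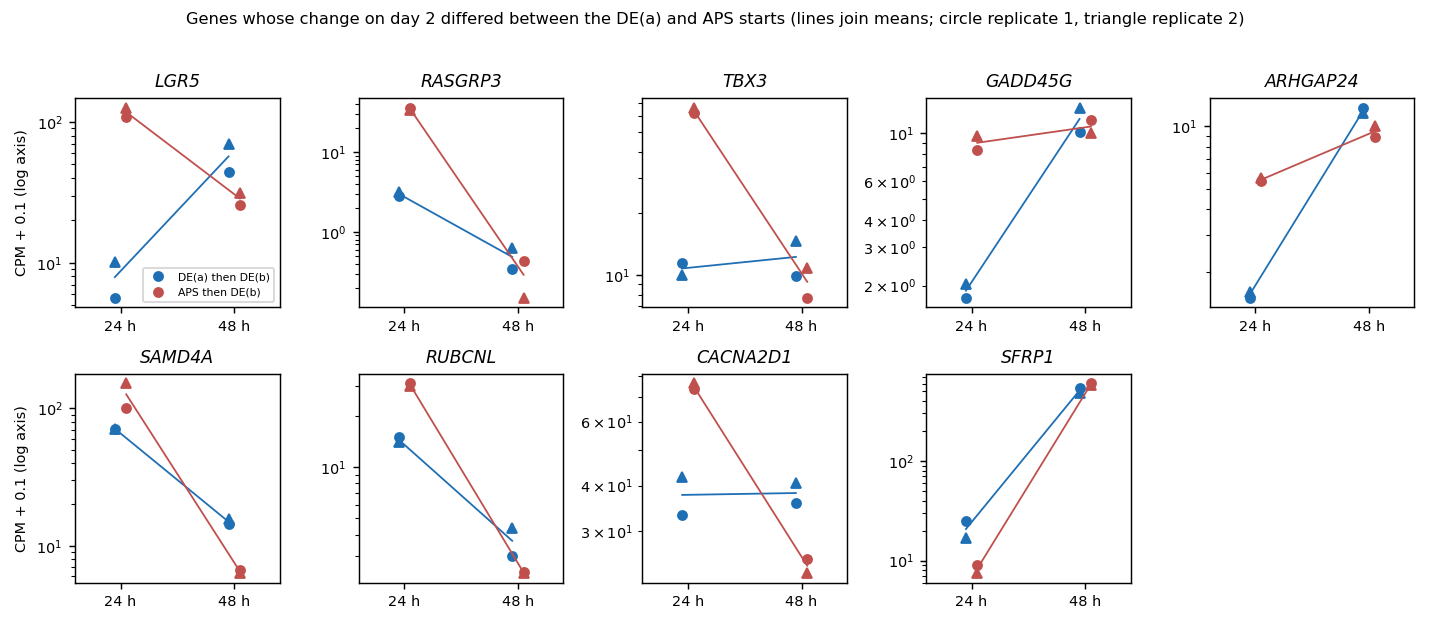
CPM on a log axis at 24 h and at 48 h for 9 of the 10 genes called in the interaction test, with DE(a) followed by DE(b) in blue and APS followed by DE(b) in red, one point per replicate. LGR5 goes on the blue line from 5.55 and 10.1 to 43.8 and 69.8 CPM and is lower at 48 h than at 24 h on the red one.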

How the data were processed

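RNA sequencing libraries of wild-type cells were compared as labelled. Per the submitters' processing notes and the study's methods, reads were quantified with Salmon 1.10.2 against GRCh38, with R 4.4.2 listed beside it. The values as deposited by the authors are estimated counts per gene, not normalized. Totals per library ranged from 15522780 to 23439799, and each column was matched to a sample (0 left over).

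These values were rounded and passed, in R 4.3.3, to the quasi-likelihood test of edgeR 4.0.16: TMM scaling, the filterByExpr filter by condition (17895 of 37951 identifiers tested), 1 mean for each of 17 conditions fitted to the 34 libraries, and p-values adjusted by Benjamini-Hochberg across the genes tested and called at 0.05. With 17 residual degrees of freedom, the common dispersion came to 0.0611. Each SE is the log2 fold change divided by the square root of its F statistic. Where a group held 1 to 3 counts, a ratio of counts with an exact 95% interval is given in place of the fitted fold change, and where it held 0, a bound against 3 counts over the group. Of the identifiers, 34979 were found in GENCODE v44 (GRCh38), and where a symbol has several identifiers, the one in that annotation was used. The fit was tested on simulated data. Tables and plots were made in Python 3.11.15 with pandas 2.3.3, scipy 1.17.1 and matplotlib 3.10.9, and promoter windows are from RefSeq.

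The genes named are the 12 largest rises and 12 largest falls among called genes whose mean reached 10 CPM on 1 day, libraries that do not overlap between days and a symbol under 1 identifier; up to 6 members of each of 32 gene lists, being the head of the list and the called members with the largest change; the 4 largest in each direction in the other contrasts, where those called in the interaction are given; and the cell type markers. Some genes under this rule are not reported here. KIT, FGF17, VIM, MESP1, GAPDH, MCM4, RARB, ZEB2, CDX4, BMPER, SOX18, TRH, VIL1, TBX20, SMAD7, PMEPA1, CUBN, CHRD, NKD1, TCF7, FRZB, WNT4, FGF9, AURKB, FAS, PFKL, PFKM, FGFR1, CXCL12 and FGF10 were added after their values were seen. The comparison, its members and the lists were chosen with earlier results of these data known. Other settings tried were RLE scaling, no filter on low counts, a term for the replicate number, a fit to the compared libraries alone, glmTreat against a fold change of 2, DESeq2 1.42.0, and fits without each library in turn.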

Additional observations from a re-analysis of the deposited data

Results flagged for a closer look

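In 10 genes the change from 24 h to 48 h in DE(b) medium differed between DE(a) and APS cells by a test of the difference itself, the edgeR interaction term over all genes (10 of 17895 called, and 1264 at an unadjusted p under 0.05). Of these, 9 are given. The difference, as the log2 change after DE(a) minus that after APS, was 4.87 for LGR5, 4.56 for RASGRP3, 2.97 for TBX3, 2.40 for GADD45G and 2.21 for ARHGAP24. It was 2.02 for SAMD4A, 1.69 for RUBCNL, 1.64 for CACNA2D1 and -1.57 for SFRP1. LGR5 was at 5.55 and 10.1 CPM at 24 h and 43.8 and 69.8 CPM at 48 h after DE(a), and at 108 and 126 CPM and then 25.6 and 31.4 CPM after APS. TBX3 was at 11.4 and 9.93 and then 9.80 and 14.5 CPM after DE(a), and at 62.2 and 66.0 and then 7.61 and 10.7 CPM after APS. GADD45G was at 1.66 and 1.93 and then 10.05 and 12.96 CPM after DE(a), and at 8.28 and 9.57 and then 11.4 and 9.87 CPM after APS. The cause of these differences was not tested.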

How the results depend on the processing

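With RLE scaling, no filter, a replicate term or DESeq2, the genes called between day 2 and day 1 numbered 5025, 5026, 6017 and 5465, beside 5011. With only the 4 libraries compared there were 3161, and for a fold change of at least 2 there were 764. Leaving out 1 library gave 2894 to 4465, with 3334 without 24 h replicate 1 and 2894 without 48 h replicate 2. At an unadjusted p under 0.05 there were 6868. Against DE(a)-PM (3675 called) the counts were 1651 with only the libraries compared, 1083 for a fold change of at least 2 and 2250 to 3329 without 1 library. Against DE(a)-LM (2783) they were 889 for a fold change of at least 2 and 1730 to 2560 without 1 library. For the interaction with APS (10) they were 422 with no filter, 33 with a replicate term, 2 with only the libraries compared, 2 for a fold change of at least 2, 80 with DESeq2 and 2 to 13 without 1 library. The cause of these shifts was not tested, except that the stricter fold threshold calls fewer genes by construction. Of 162 named genes called, 103 kept the call in all 4 fits without 1 library and 59 lost it in at least 1, and 0 of 36 uncalled genes gained one. No called named gene changed direction under any of these settings, and direction was compared for named genes only. Some uncalled named ones, among them VIM, GATA3 and CDKN1A, changed sign between fits without 1 library. Replicate numbers are only numbers in the labels: the deviations of same-numbered DE(a) 24 h and DE(a)-DE(b) libraries correlated at 0.1058, with a median of 0.1424, a range from -0.1724 to 0.5311 and 89 of 136 pairs of conditions over 0.1. All replicate 1 libraries were deposited as one set and all replicate 2 libraries as another, named as a repeat. The labels do not say whether each set was processed together and name no shared batch, so the replicate block stayed an alternative. It moved the count to 6017, kept all 162 calls of named genes and called 5 of the 36 others. Of those others, 13 were called with no filter, 8 with only the libraries compared and 4 with DESeq2. With only the libraries compared, 17 of the called named genes lost the call. With 2 libraries a side, changes of low genes and changes near the threshold are the least certain, and a gene not called is not shown to be unchanged.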
